A study of Mus musculus with 9 samples.

Results

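The 10 genes described here, Lgr5, Ascl2, Axin2, Sp5, Nkd1, Notum, Myc, Tcf7, Rnf43 and Znrf3, are known targets of Wnt signaling in the intestine, and Lgr5 and Ascl2 mark the stem cells at the crypt base. They were chosen by name, as 10 of the 54146 genes listed in an RNA-seq table of mouse colonic mucosa, and all 10 were among the 14410 genes that were abundant enough to test. The RNA came from 9 C57BL/6J mice at 15 wk of age. Of these, 5 were ApcMin/+ mice (2 females, 3 males) and 4 were ApcMin/+; p16cis/cis mice (3 females, 1 male), called p16cis mice below. All 9 mice carried the ApcMin allele, a truncating germline mutation in 1 copy of Apc, so that neither group was wild type for the Wnt pathway. The p16cis mice in addition carried at both p16 alleles an inserted cis element that attracts DNA methylation to the p16 promoter. The RNA was taken from colonic crypts of normal-appearing mucosa, not from tumors, and the comparison asked which transcripts differ when p16 epimutation is added to the Apc mutation.

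Wnt proteins bind Frizzled receptors with the co-receptors Lrp5 and Lrp6. This stops the destruction complex, which contains Apc and Axin, from degrading β-catenin, and β-catenin then enters the nucleus and activates genes together with TCF and LEF factors. In the colon the signal is strongest at the crypt base, where it maintains the stem cells. Among the genes it activates are brakes on the pathway itself, such as Axin2, Nkd1, Notum, Rnf43 and Znrf3, and regulators of growth and identity, such as Myc, Sp5 and Ascl2. The R-spondins, which bind Lgr4, Lgr5 and Lgr6, protect the Frizzled receptors from Rnf43 and Znrf3.

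Promoter sequence was at hand for 6 of the 10 genes in RefSeq (assembly GRCm38.p6), in 8 windows, since Tcf7 and Rnf43 had more than 1 start. Each window was the 250 bases before the annotated start, and it was searched on both strands for the letters CTTTGAA and the variants that read CTTTGAT or CTTTGTA or else CTTTGTT, all of which are bound by TCF and LEF factors in many Wnt target genes. Sp5 alone of the 6 genes searched held a match. The differences of Axin2 and Ascl2 between the genotypes were the highest of the 10. For these reasons the windows of Sp5, of Axin2 and of Ascl2 are shown. They lie at chr2:70474673-70474922 (plus strand), chr11:108920099-108920348 (plus strand) and chr7:142969265-142969514 (minus strand), each printed 5′ to 3′ on the strand of its gene, with capitals for the matches.
Sp5: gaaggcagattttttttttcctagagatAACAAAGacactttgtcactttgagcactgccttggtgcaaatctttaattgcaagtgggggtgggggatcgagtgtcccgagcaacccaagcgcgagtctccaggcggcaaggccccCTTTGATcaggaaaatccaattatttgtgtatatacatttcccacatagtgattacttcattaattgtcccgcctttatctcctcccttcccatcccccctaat
Axin2: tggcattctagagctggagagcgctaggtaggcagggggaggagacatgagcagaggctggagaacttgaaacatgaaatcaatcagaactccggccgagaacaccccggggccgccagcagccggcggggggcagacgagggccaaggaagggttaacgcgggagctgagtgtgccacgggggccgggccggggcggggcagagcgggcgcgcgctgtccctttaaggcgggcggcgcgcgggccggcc
Ascl2: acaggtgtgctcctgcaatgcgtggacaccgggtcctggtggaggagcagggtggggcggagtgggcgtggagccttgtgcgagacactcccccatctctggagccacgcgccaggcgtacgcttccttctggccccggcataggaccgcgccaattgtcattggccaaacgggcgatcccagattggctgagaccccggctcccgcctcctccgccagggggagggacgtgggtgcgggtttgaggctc
The Sp5 window held CTTTGTT on the opposite strand, where it reads as its complement, from 222 to 216 bases before the start, and CTTTGAT on the same strand from 104 to 98 bases before it. The windows of Axin2 and Ascl2, and those of Nkd1, Tcf7 and Rnf43, held none of these letters. A match was present in 14.8% of 32851 windows of the same length over all genes, and a match is a description of letters, not of binding.

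The values below are normalized counts, that is reads on a gene after scaling each library by its own size factor, so that they compare mice within a gene but not genes of unlike length. The libraries held between 13523500 and 17885918 reads on genes, and each p16cis library held fewer than each ApcMin/+ library. Mitochondrial genes took 8.74% to 15.6% of these reads in ApcMin/+ mice and 19.3% to 29.8% in p16cis mice, a difference that cannot be told apart from genotype. Cdkn2a, which encodes p16, was listed at 0 in 9 of 9 mice, so the altered locus itself gives no check of the genotype labels at this depth. Epithelial transcripts were abundant, with summed values of the 8 epithelial markers from 187543 to 275237 over the mice. The sums of 7 fibroblast markers were 54.8 to 590, and those of 12 T cell markers 159 to 1322. Such sums over unlike genes compare only coarsely. These 8 markers do not speak to the part of the intestine. Each gene was tested with limma on log2(normalized count + 1), and p-values were adjusted by Benjamini-Hochberg over all 14410 genes. The log2 fold changes are p16cis minus ApcMin/+ on this scale, where the added 1 shrinks the differences of scarce genes, and their errors are standard errors (SE).

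Of the 10 genes, Myc alone passed the test at an adjusted p under 0.05, being higher in p16cis mice, and no gene was lower. Over all genes tested 8.14% were called higher and 8.75% lower, so 1 of 10 is near this background. None of the 10 passed with a fold change over 2, where 3.48% of all genes did in either direction. Myc was also the only member whose genotypes did not overlap, against 7.24% of all genes not overlapping with the p16cis mice higher and 8.95% with them lower. Of the differences 7 were above 0 and 3 below, with a median log2 fold change of 0.09, where the median over all genes was -0.00. At an unadjusted p under 0.05 were 4 members, Myc, Axin2, Rnf43 and Ascl2, each with the higher mean in p16cis mice. Of all 14410 genes tested 4779 were under that unadjusted p, so 4 of 10 is near this background. The genotype differences of Lgr5, Tcf7, Znrf3, Nkd1, Sp5 and Notum were smaller than the spread within the groups.

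**Figure D1:**
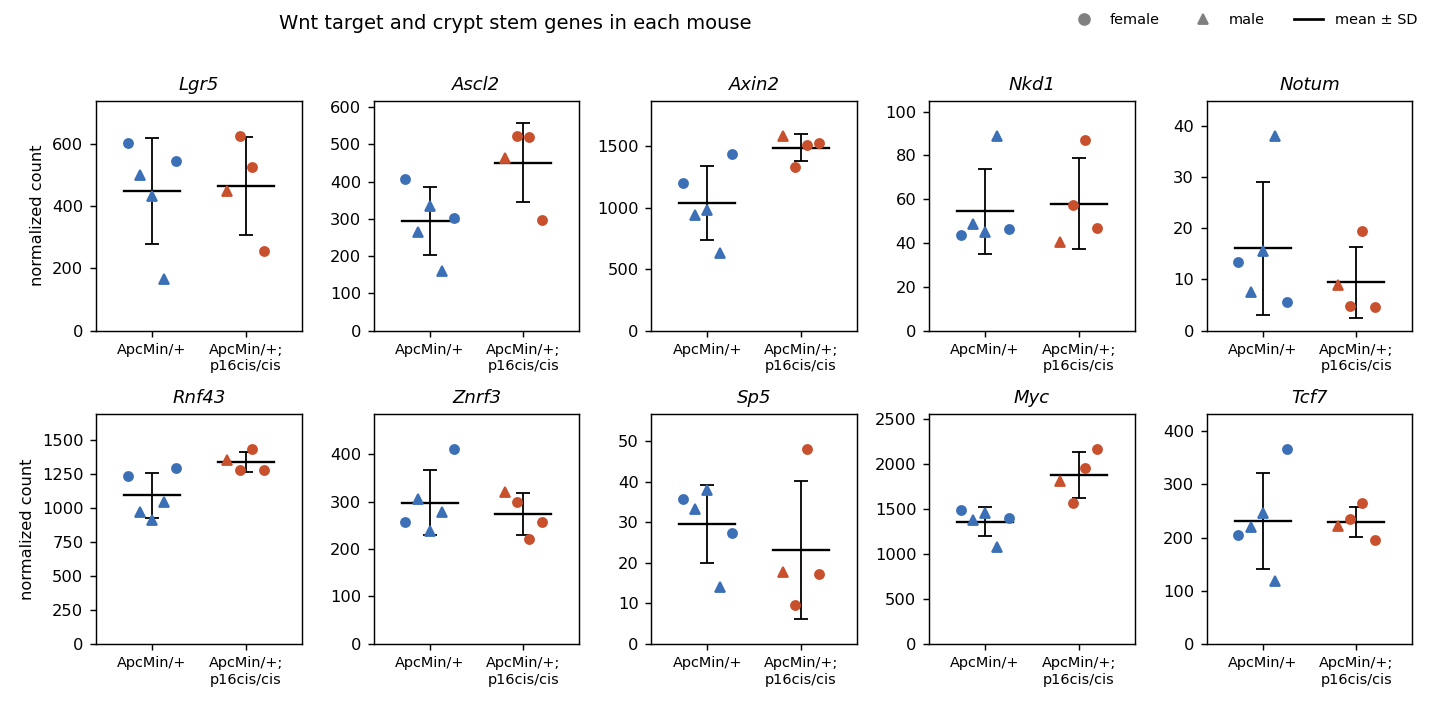
Normalized count (vertical axis, linear and starting at 0) of each of the 10 genes in every mouse, ApcMin/+ in blue and ApcMin/+; p16cis/cis in red, with circles for females, triangles for males and bars for the mean ± SD. The groups are apart for Myc, where the highest ApcMin/+ value was 1482 and the lowest p16cis value 1565, and they overlap for the other genes.

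Lgr5 encodes the R-spondin receptor by which crypt base stem cells are recognized (ENSMUSG00000020140.15, chromosome 10 from 115450311 to 115587780 in GRCm38, minus strand). Its normalized counts were 604, 501, 433, 165 and 545 in ApcMin/+ replicates 1 to 5, and 448, 627, 527 and 255 in p16cis replicates 1 to 4. The lowest value of each group was well below the rest, and the groups covered the same range. The means were 449.6 ± 171 (SD, n = 5) and 464 ± 157 (SD, n = 4), a log2 fold change of 0.10 ± 0.36 (SE, limma adjusted p = 0.877). The 95% interval of the fold ran from 0.624 to 1.84, so the data leave room for a change of that size in either direction. Without ApcMin/+ replicate 4, whose 165 was the lowest value, the log2 fold change was -0.23, and among the females it was -0.39, so that the mean has no settled direction.

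Ascl2 is the basic helix-loop-helix factor that acts with Wnt signaling to hold crypt cells in the stem cell state (ENSMUSG00000009248.6, chromosome 7 from 142966829 to 142969264, minus strand). Its normalized counts were 407, 265, 335, 159 and 303 in the ApcMin/+ mice and 465, 523, 519.9 and 298 in the p16cis mice. The p16cis mice were above the ApcMin/+ mean in 4 of 4 mice and above its highest mouse in 3 of 4. The log2 fold change of 0.65 ± 0.25 (SE) was the largest rise of the 10 by size, but its adjusted p was 0.0990 by limma, and the exact permutation test over the 126 splits of the mice gave p = 0.0635 (two-sided).

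With each genotype's mean taken off, their Pearson r over the 9 mice was 0.94 (Spearman 0.73), the highest of the 45 pairs of members, and it was 0.84 without ApcMin/+ replicate 4. Without that mouse it was no longer the highest, since Axin2 with Rnf43 was at 0.88. The median r of the 45 pairs was 0.29, with 28 pairs above 0, and it fell to 0.17 without ApcMin/+ replicate 4, where Lgr5 with Axin2 went from 0.68 to 0.02 and Lgr5 with Myc from 0.29 to -0.75. All pairs share the 9 libraries, their depth and their cell mix, so these are descriptions of these mice.

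The feedback inhibitors fell into an abundant and a scarce set. Axin2, a scaffold of the β-catenin destruction complex and the most widely used readout of Wnt activity, is on chromosome 11 from 108920349 to 108950783 (ENSMUSG00000000142.15, plus strand). It had normalized counts of 1204, 941, 982, 629 and 1438 in the ApcMin/+ mice and of 1586, 1332, 1512 and 1524 in the p16cis mice. Of the 4 p16cis mice, 3 were above every ApcMin/+ mouse, and the p16cis values lay close together, with a coefficient of variation of 7.34% against 29.2%. The log2 fold change was 0.57 ± 0.19 (SE) with an adjusted p of 0.0626 by limma, just outside the threshold. Axin2 passed without ApcMin/+ replicate 4 or without replicate 5, but among the females alone its log2 fold change was 0.14 with an adjusted p of 0.575.

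Rnf43 and Znrf3 are paralogous membrane ubiquitin ligases that remove Frizzled receptors from the cell surface. Rnf43 (ENSMUSG00000034177.15, chromosome 11 from 87662722 to 87735539, plus strand) had normalized counts of 1239, 972, 915, 1046 and 1297 in the ApcMin/+ mice and of 1352, 1284, 1437 and 1283 in the p16cis mice. Of the ApcMin/+ mice, the female replicate 5 at 1297 was inside the p16cis range and the other 4 were below it. Its log2 fold change was 0.30 ± 0.12 (SE, limma adjusted p = 0.0966) over all mice and 0.07 among the females. Znrf3 (ENSMUSG00000041961.14, chromosome 11 from 5276324 to 5444847, minus strand) had 257, 306, 238, 278 and 411 in the ApcMin/+ mice and 319, 298, 221 and 257 in the p16cis mice. The Znrf3 groups overlapped over the whole p16cis range except its lowest mouse, with a log2 fold change of -0.11 ± 0.18 (SE, limma adjusted p = 0.707) and a 95% interval of the fold from 0.711 to 1.21.

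Nkd1 and Notum were low. Nkd1 binds Dishevelled and dampens the signal inside the cell, and Notum is a secreted enzyme that removes the lipid by which Wnt proteins bind their receptors. Nkd1 (ENSMUSG00000031661.12, chromosome 8 from 88521354 to 88594884, plus strand) had normalized counts of 43.5, 48.5, 44.9, 89.0 and 46.5 in the ApcMin/+ mice and of 40.4, 57.4, 87.2 and 47.0 in the p16cis mice. One mouse of each group, ApcMin/+ replicate 4 and p16cis replicate 3, was apart from the others, and its log2 fold change was 0.08 ± 0.29 (SE, limma adjusted p = 0.872). Notum (ENSMUSG00000042988.10, chromosome 11 from 120653788 to 120661175, minus strand) had 13.4, 7.61, 15.6, 38.1 and 5.68 in the ApcMin/+ mice and 8.84, 4.79, 19.5 and 4.70 in the p16cis mice. The same 2 mice were the highest for Notum. These values rest on 3 to 30 reads per mouse, and the log2 fold change of -0.63 ± 0.58 (SE, limma adjusted p = 0.485) had a 95% interval from -1.89 to 0.63.

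Of the transcription factors, Myc drives cell growth and division and is a direct Wnt target in intestinal tumors (ENSMUSG00000022346.15, chromosome 15 from 61985391 to 61990374, plus strand). Its normalized counts were 1482, 1370.2, 1453, 1077 and 1401 in ApcMin/+ mice and 1812, 1565, 1956 and 2162 in p16cis mice. Every p16cis mouse was above every ApcMin/+ mouse. The means of 1356 ± 162 (SD, n = 5) and 1874 ± 251 (SD, n = 4) made a fold of 1.38 with a 95% interval from 1.14 to 1.66, and a log2 fold change of 0.47 ± 0.12 (SE, limma adjusted p = 0.0259). The exact permutation test gave p = 0.00794 (two-sided), the smallest that 5 against 4 mice can give.

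The call for Myc held in 14 of 22 alternative fits, and its direction in 22 of 22. Among the 8 fits that lost it were those with sex as a covariate (log2 fold change 0.42, adjusted p = 0.0671) and with the females only (0.38, adjusted p = 0.180), where 2 ApcMin/+ mice meet 3 p16cis mice. It was also lost without ApcMin/+ replicate 2, p16cis replicate 3 or p16cis replicate 4, with adjusted p-values up to 0.0835. With the mitochondrial share as a covariate, where none of the 14410 genes tested was called, its log2 fold change was 0.56 (limma adjusted p = 0.848). Genotype takes 78.1% of the variance of that share. Of 15 proliferation markers 3 were higher in p16cis mice, where 8.14% of all genes were, Mki67 (log2 fold change 0.92, adjusted p = 0.00656), Aurkb (0.51, adjusted p = 0.0255) and Birc5 (0.46, adjusted p = 0.0222). The other 12 were not past the test, and after the GC and length correction 2 of the 3 calls held. Summed over the list, the values overlapped between the genotypes, with 10215 to 16133 in ApcMin/+ mice and 14484 to 19354 in p16cis mice (exact permutation test, two-sided, p = 0.143). Their part in the Myc difference was not tested. In such bulk RNA, more cells of a type and more RNA per cell cannot be told apart.

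Sp5, a zinc finger factor of the Sp family induced by Wnt signals, whose promoter window held both matches shown above, was low (ENSMUSG00000075304.2, chromosome 2 from 70474923 to 70477729, plus strand). Its normalized counts were 35.7, 33.3, 38.0, 14.0 and 27.2 in ApcMin/+ mice and 17.7, 9.57, 48.1 and 17.2 in p16cis mice. Of the p16cis mice 3 were among the 4 lowest values, while p16cis replicate 3 was the highest of all 9. The log2 fold change was -0.50 ± 0.45 (SE, limma adjusted p = 0.471), and without p16cis replicate 3 it was -0.92, still short of the threshold with an adjusted p of 0.136.

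Tcf7 encodes TCF1, a nuclear partner of β-catenin that is also abundant in T cells (ENSMUSG00000000782.15, chromosome 11 from 52252371 to 52283014, minus strand). Its normalized counts were 205, 219.6, 246, 118 and 367 in ApcMin/+ mice and 222, 234, 264 and 196 in p16cis mice. The p16cis values all lay inside the range of the ApcMin/+ mice, with a log2 fold change of 0.07 ± 0.26 (SE, limma adjusted p = 0.880). The sum of 12 T cell markers was lowest in the same mouse, at 159 in ApcMin/+ replicate 4, and highest in the same mouse, at 1322 in replicate 5, with 10 of the 12 markers at their lowest of 9 mice in the former and 10 at their highest in the latter. The other ApcMin/+ mice had sums of 728, 799 and 738, and the p16cis mice had 413 to 666. These other mice were not in the same order for the sum and for Tcf7. Thus p16cis replicate 4 had the highest sum of its group, 666, with its lowest Tcf7 value, 196. The highest Tcf7 value of that group, 264 in replicate 3, went with a sum of 547. No T cell marker was past the test among the 11 of 12 tested, and 1 of the 12 was at 0 in at least 1 p16cis mouse. How much of the Tcf7 value came from T cells was not tested.

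**Figure D2:**
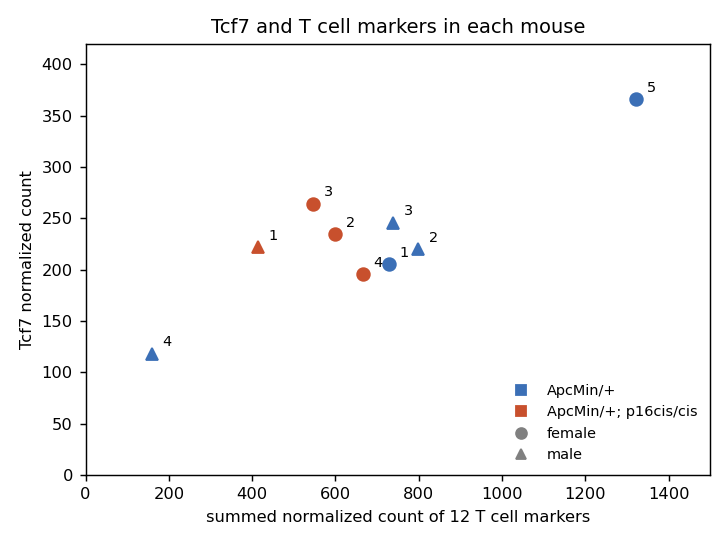
Normalized count of Tcf7 (vertical axis) against the summed normalized count of 12 T cell markers (horizontal axis) in each of 9 mice, labelled by replicate, with ApcMin/+ in blue, ApcMin/+; p16cis/cis in red, circles for females and triangles for males. ApcMin/+ replicate 4 has the lowest value on both axes and replicate 5 the highest. The other 7 mice lie between, in a different order on each axis.

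ApcMin/+ replicate 4 had the lowest of the 9 values in 5 members, Lgr5, Ascl2, Axin2, Myc and Tcf7, and the highest in 2, Nkd1 and Notum. P16cis replicate 3 was the highest for Sp5 and Rnf43 and second to ApcMin/+ replicate 4 for Nkd1 and Notum. Across the other crypt stem cell genes, ApcMin/+ replicate 4 was also the lowest of 9 mice for 11 of 23, and for 9 of 15 proliferation markers. It was the highest for 5 of 11 markers of differentiated colonocytes, 4 of 6 small intestinal markers and 3 of 8 epithelial markers. Other lists had it lowest too, for 10 of 12 T cell, 4 of 7 B and plasma cell and 3 of 7 myeloid markers. The same held for 3 of 7 fibroblast and 3 of 6 smooth muscle markers. The share of all genes for which this mouse was lowest or highest was not counted. The part of these marker differences in the values of the members was not tested.

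**Figure D3:**
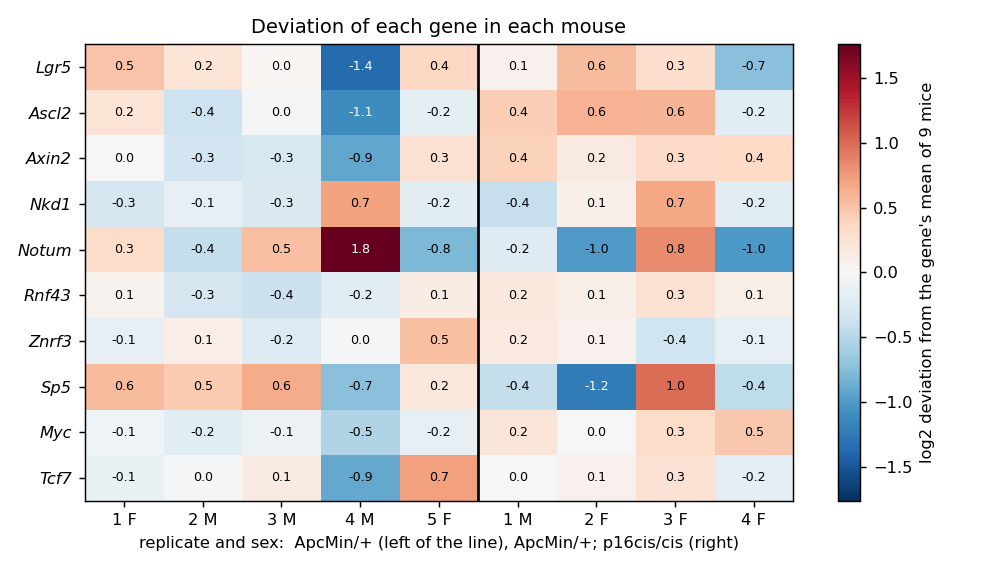
Deviation of log2(normalized count + 1) from the gene's mean over 9 mice, as colors and numbers, with the genes in rows and the mice in columns (replicate number and sex, ApcMin/+ left of the line and ApcMin/+; p16cis/cis right of it). In ApcMin/+ replicate 4 the row of Lgr5 falls to the deepest blue while Nkd1 and Notum are red, and for Myc all 4 p16cis mice lie above all 5 ApcMin/+ mice.

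**Figure D4:**
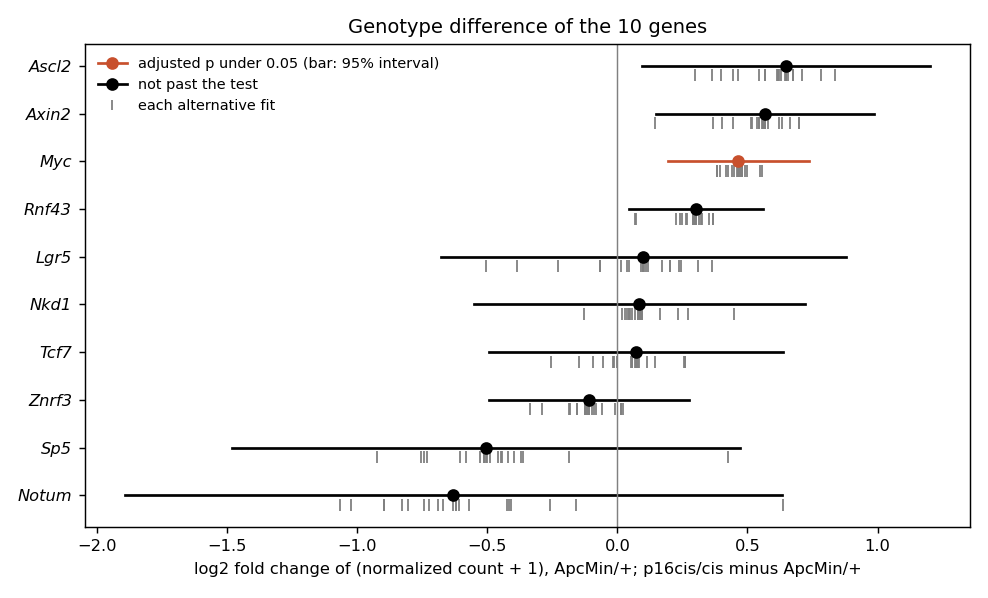
Log2 fold change (horizontal axis, ApcMin/+; p16cis/cis minus ApcMin/+) of each of the 10 genes with its 95% interval, red where the adjusted p is under 0.05, and a gray tick for each alternative fit. The interval of Myc runs from 0.19 to 0.74, those of Ascl2, Axin2 and Rnf43 also lie above 0, and those of the other 6 genes include 0.

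To compare levels between the genes, the normalized counts were divided by the length of the longest protein-coding transcript in kilobases. On this scale Myc was the most abundant, with a mean of 679 per kilobase over the 9 mice. It was followed by Axin2 at 291, Rnf43 at 279, Ascl2 at 227, Lgr5 at 96.8, Tcf7 at 93.2, Znrf3 at 45.5, Nkd1 at 13.7, Sp5 at 12.7 and Notum at 5.94 per kilobase. The ranges over mice of neighbors in this order overlapped except between Myc and Axin2 and between Znrf3 and Nkd1. Within mice, Axin2 was above Rnf43 in 6 of 9, Lgr5 above Tcf7 in 5 of 9 and Nkd1 above Sp5 in 4 of 9, so these neighbors have no firm order. In the ApcMin/+ means Rnf43 (254) was above Axin2 (244) and Sp5 (14.1) above Nkd1 (13.3), and in the p16cis means the order was the reverse, while Ascl2 was above Lgr5 in 9 of 9.

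The other genes of the pathway were read from 6 lists by role, 120 genes in all, of which 118 were found in the table under their symbols and 82 were abundant enough to test. Of these, 7 were called higher and 10 lower in p16cis mice, and 3 passed with a fold over 2. Over all genes 8.14% were called higher and 8.75% lower. The counts of higher and lower genes, here and for each list below, are to be read against these shares. The lower genes included Wnt5a, the Wnt export factor Wls, the receptors Fzd3, Fzd5 and Lgr4, and β-catenin itself, and the higher genes included the crypt base receptors Ephb2 and Ephb3, the repressor Tcf7l1 and the stem cell genes Rgmb, Kcne3 and Phlda1. Genes called higher had a higher GC content over all genes tested, with a median of 54.6% against 45.2% for those called lower, and after a correction for GC content and length 12 of the 17 genes were still past the test, while Wls, Pygo2, Ephb2, Nedd9 and Bmi1 were not. In all 9 fits that left out 1 mouse, 10 of the 17 stayed past the test, and Wls, Pygo2, Ephb2, Ephb3, Rgmb, Bmi1 and Kcne3 missed it in at least 1.

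Among 25 Wnt ligands, R-spondins and their processing factors, 6 were tested and 2 were lower. Wnt5a, a ligand that signals mostly without β-catenin and comes mainly from the stroma under the epithelium, had normalized counts of 62.5, 118, 110.2, 91.5 and 82.9 in ApcMin/+ mice and 35.4, 28.7, 9.02 and 7.83 in p16cis mice. The groups did not overlap, and the mean was 5.22-fold lower in p16cis mice on the fitted scale (log2 fold change -2.38 ± 0.43, SE, limma adjusted p = 0.00571). The Wnt5a values rest on 28, 18, 6 and 5 reads in the p16cis mice and on 56 to 124 in ApcMin/+ mice. The summed fibroblast markers were 99.1 to 590 in ApcMin/+ mice and 54.8 to 209 in p16cis mice, with 1 of 7 markers, Col3a1, called lower and 3 of 7 at 0 in at least 1 p16cis mouse. The Col3a1 call did not hold after the GC and length correction. The part of the fibroblast markers in the Wnt5a difference was not tested.

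Wls, the carrier that takes Wnt proteins to the cell surface, had normalized counts of 2394, 2739, 2535, 2414 and 2421 in ApcMin/+ mice and 2193, 1919, 1803 and 1699.7 in p16cis mice. Its groups did not overlap either, at a log2 fold change of -0.40 ± 0.10 (SE, limma adjusted p = 0.0195), which the GC and length correction reduced to -0.16 with an adjusted p of 0.281. Porcn, the enzyme that adds the lipid to Wnt proteins, had means of 79.1 ± 19.5 (SD, n = 5) and 109 ± 29.2 (SD, n = 4) and was not past the test (limma adjusted p = 0.232). The canonical ligands and the R-spondins were scarce in these libraries. Wnt2, Wnt3a, Wnt7a, Wnt9b and Rspo2 were at 0 in 9 of 9 mice, and 19 of the 25 genes stayed below the minimum for testing.

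Of 17 receptors and co-receptors 16 were tested, and 3 were lower and none higher, where 8.75% of all genes were lower and 8.14% higher. Lgr4, the R-spondin receptor of the whole crypt and a paralog of Lgr5, had normalized counts of 3473, 3687, 3605, 3335 and 3403 in ApcMin/+ mice and 2914, 2114, 2019.6 and 2091 in p16cis mice. Every p16cis mouse was below every ApcMin/+ mouse, at a log2 fold change of -0.63 ± 0.12 (SE, limma adjusted p = 0.00629). Fzd5, an intestinal Frizzled receptor that Rnf43 and Znrf3 act on, had 2494, 2604, 2627, 2456 and 2444 against 1725, 1594, 1582 and 1225. Its groups were far apart for their spread, with a log2 fold change of -0.73 ± 0.11 (SE, limma adjusted p = 0.00260). The less abundant Fzd3 had 99.3, 178, 167, 139.8 and 173 against 80.8, 46.3, 70.6 and 45.4, also without overlap, and a log2 fold change of -1.32 ± 0.24 (SE, limma adjusted p = 0.00656). These 3 calls held in each of the 9 fits that left out a mouse and after the GC and length correction. Among the females alone Fzd3 missed the threshold (limma adjusted p = 0.0668). With the mitochondrial share as a covariate all 3 calls were lost, as was every other call over all genes tested.

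Of 17 secreted and membrane inhibitors 6 were tested, and none passed the test by limma. Over all genes tested 4779 of 14410 had an unadjusted p under 0.05, as did 5 of these 6 inhibitors. The most abundant were Shisa2, with an ApcMin/+ mean of 1483 ± 109.9 (SD, n = 5) and a p16cis mean of 1209 ± 254 (SD, n = 4), and Kremen1, with 514 ± 49.7 and 419 ± 65.2. Sfrp5, a secreted Frizzled mimic, did not overlap between the genotypes, with 8.93, 8.56, 12.7, 5.08 and 4.54 in ApcMin/+ mice and 18.9, 14.4, 18.0 and 20.4 in p16cis mice. It missed the threshold with a limma adjusted p of 0.0623, and its values rest on 4 to 15 reads per mouse.

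Of 16 nuclear effectors 14 were tested, and 2 were higher and 1 lower. Ctnnb1, which encodes β-catenin, had normalized counts of 10535, 10260.5, 10673, 9186 and 11112 in ApcMin/+ mice and 6974, 5886, 6232 and 5269.8 in p16cis mice. The 2 groups were widely separated, and the log2 fold change was -0.77 ± 0.11 (SE, limma adjusted p = 0.00260). Tcf7l1 encodes TCF3, which mostly represses Wnt targets. It had 2539.7, 1502, 1569, 1905 and 1238 against 2994, 3096, 2810.0 and 4054, with all 4 p16cis mice above, and a log2 fold change of 0.92 ± 0.19 (SE, limma adjusted p = 0.00919). Pygo2, a chromatin reader that joins the β-catenin complex, rose by less, with a log2 fold change of 0.38 ± 0.11 (SE, limma adjusted p = 0.0288) that was 0.25 after the GC and length correction with an adjusted p of 0.113. The most abundant other member, the corepressor Ctbp1, had means of 4641 ± 309 (SD, n = 5) and 4618 ± 316 (SD, n = 4).

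Of 22 other Wnt target genes 19 were tested, and 2 were higher and 2 lower. Ephb2 and Ephb3, the ephrin receptors that keep cells in place along the crypt, were both higher. Ephb3 had 1081, 891, 964, 577 and 1002 in ApcMin/+ mice and 1325, 1321, 1231 and 1363 in p16cis mice, which did not overlap, with a log2 fold change of 0.57 ± 0.16 (SE, limma adjusted p = 0.0320). Ephb2 overlapped between the groups, with means of 2147 ± 171 (SD, n = 5) and 2748 ± 325 (SD, n = 4) and a log2 fold change of 0.35 ± 0.11 (SE, limma adjusted p = 0.0432). This call held in 8 of 22 alternative fits and was lost after the GC and length correction (adjusted p = 0.0938), with sex as a covariate (0.0936) and among the females (0.323). The lower pair were Id2, an inhibitor of differentiation factors, with a log2 fold change of -0.72 ± 0.13 (SE, limma adjusted p = 0.00670), and Nedd9, a docking protein of cell adhesion, with -0.60 ± 0.12 (SE, limma adjusted p = 0.00939), which was -0.45 after the GC and length correction with an adjusted p of 0.0589. The most abundant of the list, Cdx1 and Slc12a2, were not past the test, with adjusted p-values of 0.221 and 0.146, and the Wnt targets Cd44 and Ccnd1 had log2 fold changes of 0.01 and -0.00.

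Of 23 other crypt stem cell genes 21 were tested, and 3 were higher and 2 lower. Phlda1, which marks cells of the crypt base, had 1246, 663, 717, 534 and 616 in ApcMin/+ mice and 1120.1, 1314, 1803 and 1953 in p16cis mice. A single ApcMin/+ mouse reached into the p16cis range, and the mean was 2.09-fold higher (log2 fold change 1.06 ± 0.23, SE, limma adjusted p = 0.0123). Kcne3, a potassium channel subunit, and Rgmb, a BMP co-receptor, did not overlap between the groups and were higher by 0.75 ± 0.18 (SE, limma adjusted p = 0.0162) and 0.48 ± 0.13 (SE, limma adjusted p = 0.0259) on the log2 scale. Prom1, a membrane protein of stem and progenitor cells, had 5496, 4381, 5664, 4431 and 6076 against 2252, 3304, 3337 and 2127, with a log2 fold change of -0.94 ± 0.16 (SE, limma adjusted p = 0.00532). Bmi1, a Polycomb protein, was lower by -0.58 ± 0.17 (SE, limma adjusted p = 0.0353) and was at -0.30 with an adjusted p of 0.171 after the GC and length correction. The abundant Ets2 and Aqp4 had log2 fold changes of 0.00 and -0.36 and were not past the test, and Smoc2, a secreted protein of Lgr5+ stem cells, had 0.24 with a limma adjusted p of 0.473.

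**Figure D5:**
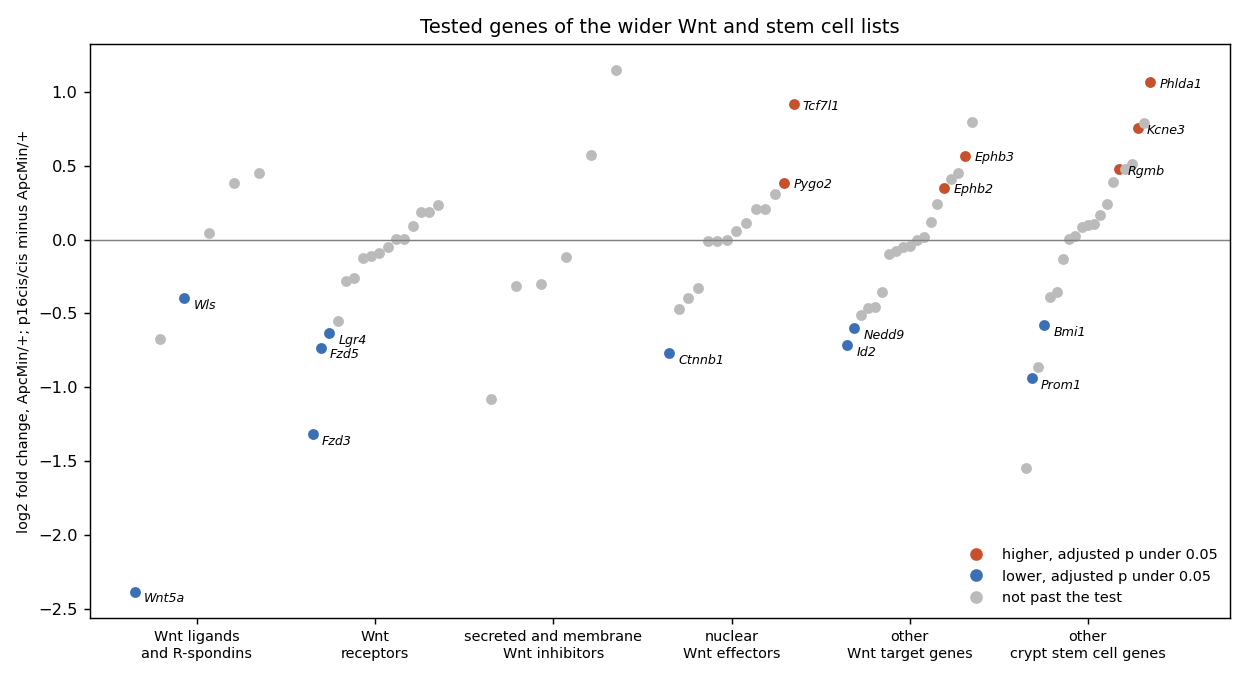
Log2 fold change (vertical axis, ApcMin/+; p16cis/cis minus ApcMin/+) of each of the 82 tested genes of the 6 lists, sorted within a list, with genes called higher in red, genes called lower in blue and the others in gray. The 7 higher genes are in the 3 lists on the right, and the 3 called receptors are all lower.

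Markers of other crypt cells were read beside these genes, and most were not past the test. Each count is to be read against the 8.14% of all genes called higher and 8.75% called lower. Of 4 markers of deep crypt secretory cells, which lie between the stem cells of the colon, Reg4 (log2 fold change 1.42, limma adjusted p = 0.0483) and Dll4 (0.49, limma adjusted p = 0.0147) were higher. After the GC and length correction 1 of these 2 calls held, and 1 of the 4 markers had a log2 fold change below 0. The sum of the 4 markers was 9829 to 26634 in ApcMin/+ mice and 21226 to 88776 in p16cis mice (exact permutation test, two-sided, p = 0.0397). Among goblet cell markers 1 of 9, Spink4, was higher. The Spink4 call did not hold after the GC and length correction. Of 11 markers of differentiated colonocytes, Slc26a3 and Clca4a were lower, Slc37a2 was higher and 8 were not past the test. After the same correction the Slc37a2 call and 1 of the 2 lower calls held. Of the 6 small intestinal markers 3 were tested, and Sis and Alpi were lower, also after the GC and length correction. Of the 6, 3 were at 0 in at least 1 p16cis mouse. The sum of this list was 825 to 3294 in ApcMin/+ mice against 342 to 688 in p16cis mice (p = 0.0238 by the same exact test). For the 8 epithelial markers the sums overlapped (p = 0.619, exact permutation test). The part of these cell types in the values of the 10 genes was not tested.

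The genes whose mouse to mouse pattern was most like that of 2 members were sought among the 10420 tested genes with a mean normalized count of at least 100, by Pearson r over the 9 mice after each genotype's mean was taken off. For Lgr5 they were Sarnp, Rab14, a gene listed as RP23-121N17.2, Baz1a and Rtn4rl1, with r from 0.97 to 0.98. For Axin2 they were Tab3, Skil, Pum2, Svil and Sept8, with r from 0.95 to 0.99. The Spearman values ran from 0.88 to 0.93 for the genes like Lgr5. For those like Axin2 they ran from 0.68 for Svil to 1.00 for Skil. None of these 10 is in the lists of Wnt genes used here, and only Rab14 (log2 fold change -0.36, limma adjusted p = 0.0229) and Pum2 (-0.45, limma adjusted p = 0.0155) were past the genotype test. These values of r are the highest of many and rest on 9 mice that share their libraries, so they describe these mice.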

How the data were processed

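The RNA-seq comprised 5 ApcMin/+ and 4 ApcMin/+; p16cis/cis mice, and every mouse was a separate replicate. The signal values that the authors deposited are read counts per gene, scaled by 1 size factor per library. In their methods, reads from the BGISEQ-500 were aligned with BOWTIE2, counted with RSEM and compared with DESeq2. The genome build and the versions are not given in the sources used here. Coordinates and transcript lengths were taken from GENCODE M21 (GRCm38), which holds 54079 of the 54146 identifiers without regard to version. Whole reads were recovered for 100% of the positive values, to within 0.01 reads, giving 13523500 to 17885918 reads on genes per mouse. This depth limits the precision of genes with few reads.

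Values were tested with limma 3.58.1 (R 4.3.3, trended variances) on log2(normalized count + 1) for 14410 genes with at least 10 in at least 4 mice. Genotype was the only term, with Benjamini-Hochberg adjustment and calls at an adjusted p under 0.05. Single values and sums were compared by exact permutation over 126 splits. Alternatives were another pseudocount and filters, edgeR 4.0.16 and DESeq2 1.42.0 on recovered reads, other scalings, covariates for sex and mitochondrial share, females only, the replicate block, a GC and length correction (loess, span 0.5) and each mouse left out. The procedure was tested on simulated data. Replicate numbers name different mice in each genotype, and their deviations correlated at 0.02 on average, so they were not used as pairs.

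The members and all lists were chosen with earlier results of these data known. Named were the 10 members, every gene of the wider lists past the test, the 2 most abundant genes of each list, and the 5 genes each most like Lgr5 and Axin2. Genes named outside this rule, among them Sfrp5, Cd44, Ccnd1, Smoc2, the genes at 0 and the markers past the test, were chosen after their values were seen. The listed genes Trabd2a and Tle5 were not matched by symbol.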

Additional observations from a re-analysis of the deposited data

Results flagged for a closer look

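Among 58 groups of mice checked, for the 10 members, the 17 wider list genes past the test, the reads on genes and the mitochondrial share, 5 held a mouse that stood far from the rest of its group (Dixon's test at the 95% level). Chance alone flags about 1 group in 20. For Nkd1, ApcMin/+ replicate 4 had a normalized count of 89.0, where the other ApcMin/+ mice had 43.5 to 48.5. For Myc the same mouse had 1077, where the others had 1370.2 to 1482, and without this mouse Myc was still past the test. For Lgr4, ApcMin/+; p16cis/cis replicate 1 had 2914, where the other mice of its group had 2019.6 to 2114. For Bmi1, ApcMin/+ replicate 5 had 469 against 286 to 317, and for Phlda1, ApcMin/+ replicate 1 had 1246 against 534 to 717.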

How the results depend on the processing

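Of 218 alternative values of the members, 187 kept their direction and their side of the threshold and 18 changed sign, none of them past the test. The number of members past the test was 1 and became 0 with sex as a covariate, among females only and with the mitochondrial share as a covariate, and 2 with the replicate block (Axin2 and Ascl2, in which ApcMin/+ replicate 5 has no partner and does not contribute). Myc lost its call with the replicate block (adjusted p = 0.0546) and with the block and the GC and length correction together (0.0825). Leaving out each mouse gave 0 to 2. The 2434 calls over all genes became 1437 with sex as a covariate, 898 among females, 1244 with the GC and length correction and the replicate block together, 2074 with the replicate block, and 1183 to 3488 with 1 mouse left out. The mice whose removal moved this count or that of the higher list genes by over 1.5 times were ApcMin/+ replicates 2 and 3 (1353 and 1287 calls, 4 and 3 list genes higher) and p16cis/cis replicates 2 and 4 (1257 and 1183 calls, 2 and 4 list genes higher). With the mitochondrial share as a covariate 0 genes were called by limma, with 798 at an unadjusted p under 0.05, where genotype takes 78.1% of the variance of that share. The 7 wider list genes called higher became 4 with scaling to nuclear reads, 3 with sex as a covariate, 0 among females and 0 with the mitochondrial share, 4 with the GC and length correction and the replicate block, and 2 to 7 with 1 mouse left out, and the 10 lower became 0 with the mitochondrial share. The share of higher calls over all genes was 48.2% and became 57.8% among females. Log2 fold changes that changed sign were, for Lgr5, -0.0676 with sex as a covariate, -0.51 with the mitochondrial share, -0.39 among females and -0.23 to 0.36 with 1 mouse left out. For Tcf7 they were -0.0186 by edgeR, -0.0131 by DESeq2, -0.0570 with sex, -0.0936 with the mitochondrial share, -0.25 among females and -0.15 to 0.26 with 1 mouse left out. For Znrf3 they were 0.0137 with the replicate block, 0.0231 with this and the GC and length correction, and -0.19 to 0.0137 with 1 mouse left out. With the mitochondrial share Notum was at 0.64 and Sp5 at 0.43, and Nkd1 ran from -0.13 to 0.27 with 1 mouse left out. The causes were not tested. The replicate numbers name different mice, and same-numbered mice correlated between -0.18 and 0.14, with 2 of the 4 p16cis/cis mice closest to their own number. Depth limits Notum, Sp5 and Nkd1 most.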

Other observations

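ApcMin/+ replicate 4 held the highest of 9 values for 6 of the 14 secreted and membrane inhibitors with any value above 0. No other mouse held more than 2. For the 20 such ligands it held 5 and ApcMin/+ replicate 5 held 4. This mouse was also the highest for 5 of 11 differentiated colonocyte and 4 of 6 small intestinal markers. For how many of all genes it was the highest was not counted, and 10 of the inhibitors were too scarce to test. The genes named here were chosen after their values were seen, for being high in this mouse, and nothing was tested. Wif1, a secreted Wnt inhibitor, had a normalized count of 92.8 in this mouse and 7.98 to 55.1 in the others. Apcdd1, a membrane inhibitor, had 59.7 against 2.53 to 12.4, and Dkk2 had 12.7 (10 reads) against at most 9.02. Wnt11 had 67.4 against 4.79 to 12.7, Wnt6 38.1 against 4.51 to 15.7, and Wnt10a 12.7 against at most 0.976. In this mouse Nkd1 and Notum were at their highest of 9 mice, and Lgr5, Ascl2 and Axin2 at their lowest.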
